A study of Homo sapiens with 5 samples.

Results

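LY2157299 (galunisertib) is a small-molecule inhibitor of the kinase of the TGF-beta type I receptor, and cultures with and without it are compared here in prostate cancer cells carrying a hairpin against FOXA1. LNCaP cells, an androgen-responsive human line, received a lentiviral hairpin against FOXA1 and were labelled day 10, and 1 such culture was given LY2157299 at 10 µM for 3 days. It is set against 1 culture labelled only with the FOXA1 hairpin at day 10. All probes with a single gene symbol and a detection p below 0.01 on at least 1 of the 2 arrays entered, which gave 14667 of 47306 probes and 11017 of 20044 named genes. Of these genes, 10133 were detected on both arrays, 358 only with LY2157299 and 526 only without it.

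The study also held a LNCaP culture with a control hairpin (shCtr) at day 10, and LNRII, a LNCaP derivative with lentiviral TGFBR2, given TGFB3 at 5 ng/ml or vehicle for 3 days. None of the 3 TGFBR2 probes was detected on either LNRII array, so the arrays do not show the added receptor, and whether these probes lie within the lentiviral sequence is not given. All hairpin cultures and LNRII had been selected with puromycin, and the labels name no clone. The protocol names a vehicle for the inhibitor but does not say which of the arrays received it. The title of the series concerns the repression of TGF-beta signalling by FOXA1. There was 1 array per condition, so every difference below is a description of 2 cultures with no test between them.

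Transforming growth factor beta ligands bind a type II receptor, which recruits and phosphorylates the type I receptor. The active type I kinase phosphorylates SMAD2 and SMAD3, which enter the nucleus with SMAD4 and alter transcription, and a kinase inhibitor blocks that step. In epithelial cells the pathway is known for slowing the cell cycle through CDK inhibitors, for inducing contractile and matrix genes, and for inducing its own inhibitors. FOXA1 is a pioneer factor that opens chromatin for other transcription factors in luminal prostate cells.

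The arrays were of like quality: 37.2% of probes were detected with LY2157299 and 38.1% without, within a range of 32.3% to 38.1% over all 5 arrays, and mean intensity was 285 on both. All 8 luminal markers with a named probe were measured, and their summed intensity was 6961 with LY2157299 and 7439 without. Of the markers of other cell types, 2 of 3 basal genes, 1 of 6 fibroblast genes, 1 of 4 endothelial genes, 2 of 5 leukocyte genes and 0 of 5 core neuroendocrine genes were measured on this pair. The summed intensities were 228 and 250 for the basal genes, 95 and 97 for the fibroblast gene, 149 and 137 for the endothelial gene and 190 and 199 for the leukocyte genes, in each case with and then without LY2157299. In these bulk samples, fewer cells of a type and less RNA per cell cannot be told apart.

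FOXA1 itself stood at a log2 intensity of 11.30 with hairpin and LY2157299, 11.26 with the hairpin alone and 11.82 with the control hairpin. The hairpin arrays thus lay close together and below the control array, and FOXA1 differed by 0.05 between the cultures with and without the inhibitor. Apart from the summed, mean and median intensities above, levels are background-corrected, quantile-normalised log2 intensities. Signed values are log2 differences, LY2157299 minus FOXA1 hairpin alone, so that 1 is 2-fold. The control-hairpin value is printed beside them as a level. A comparison of the FOXA1 hairpin with the control hairpin would share the FOXA1-hairpin array, so it would be no independent reading. Among genes named for a large difference, that choice by itself tends to place an array of the pair highest or lowest. The orders of the LNCaP arrays given below for such genes are therefore partly set by selection, and how far was not tested.

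Most transcripts differed little. Of 11017 genes, 6 were at least 2-fold higher with LY2157299 (0.0545%) and 23 were at least 2-fold lower (0.209%). At 1.5-fold the counts were 70 higher (0.635%) and 136 lower (1.23%), and 98.1% of genes lay within 1.5-fold. The median difference was 0.003 and the SD over genes was 0.22. Where a gene had 2 probes detected on both arrays, the SD of a difference read by 1 probe was 0.15 over 2099 genes, and it was 0.20, 0.15 and 0.10 from the dimmest to the brightest of 3 equal groups of them. That figure is the disagreement between probes of a gene, and it misses any error that both share on an array. How much cultures differ is unknown.

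**Figure D1:**
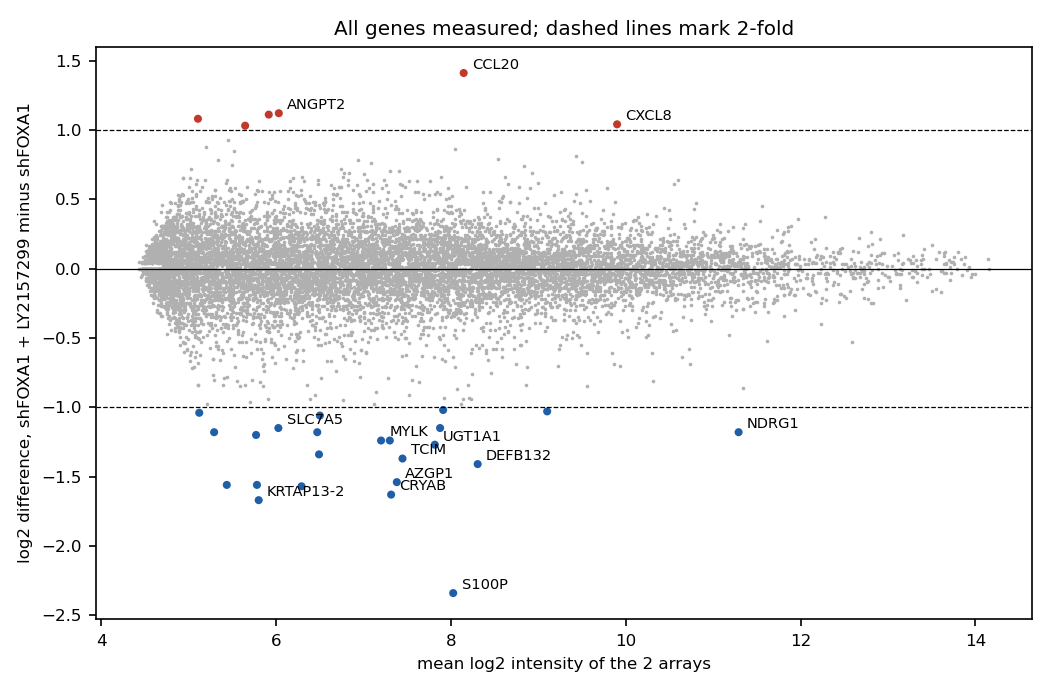
Each point is 1 of 11017 genes, with the mean log2 intensity of both arrays on the x axis and the log2 difference, FOXA1 hairpin with LY2157299 minus FOXA1 hairpin alone, on the y axis. Coloured points are the 6 genes at least 2-fold higher (red) and the 23 at least 2-fold lower (blue), and S100P lies lowest at -2.34.

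Genes of TGF-beta signalling itself were mostly lower among targets and close to 0 among ligands, receptors and SMADs. TGFBR1, which encodes the type I receptor that the drug inhibits, was below the detection limit on all 5 arrays by its single probe. TGFBR2, the type II receptor, was near the detection limit with log2 intensities of 4.72 with LY2157299 and 4.89 without, and was not detected with the control hairpin. Its second probe differed by 0.25 the other way. TGFBR3, the co-receptor betaglycan, stood at 7.70 with LY2157299, 7.34 without it and 6.08 with the control hairpin, highest in the inhibitor culture. The ligand TGFB3 was at 5.37 with LY2157299 and 5.73 without, and was not detected with the control hairpin. The ligands TGFB1 and TGFB2 were below the detection limit on all 5 arrays. Of 15 measured ligands, receptors and latency proteins, 0 were 1.5-fold apart and their median was -0.13.

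The signal-carrying SMADs lay within 0.2 of 0, with SMAD2 at 0.17, SMAD3 at -0.04 and SMAD4 at 0.18. Feedback inhibitors gave the lowest values of their list. PMEPA1, a membrane protein induced by TGF-beta that sequesters receptor SMADs, had log2 intensities of 8.87 with LY2157299, 9.57 without it and 9.74 with the control hairpin. It was thus lowest in the inhibitor culture and alike on the other two arrays, with a difference of -0.70 by this probe and -0.50 by its second probe. BAMBI, a decoy receptor, was likewise lowest with the inhibitor, at 10.39 with LY2157299, 11.08 without and 11.07 with the control hairpin. SMAD7, the inhibitory SMAD, differed by -0.21 and by -0.35 at its second probe. Over the 18 measured SMADs and feedback inhibitors the median was -0.03, with 8 above and 10 below 0.

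Of 37 measured TGF-beta target genes, 29 lay below 0 and 7 above, with a median of -0.31. Over all genes 48.2% lay below 0 and the median was 0.003. In this list 1 gene was at least 2-fold lower and 8 at least 1.5-fold lower, against 0.209% and 1.23% of all genes. In the other direction 0 were 1.5-fold higher, against 0.635% of all genes. FHL2, a LIM-domain cofactor of actin-linked transcription, was not detected with LY2157299, and its log2 intensity was 6.27 without it and 5.37 with the control hairpin. Its difference is a bound of -1.56, so it was lower by at least that much. ACTA2, smooth muscle actin, was at 10.91 with LY2157299, 11.77 without it and 10.41 with the control hairpin. CCN2, a matricellular growth factor, was at 4.97 with LY2157299, 5.81 without it and 5.16 with the control hairpin. For both, the FOXA1 hairpin alone gave the highest of the 3 LNCaP arrays, while the inhibitor culture was in between for ACTA2 and lowest for CCN2.

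The second CCN2 probe differed by -1.40, further than the first at -0.84. CDKN2B, the CDK inhibitor p15, had log2 intensities of 5.83 with LY2157299, 6.55 without and 5.31 with the control hairpin, and its probes differed by -0.72 and -0.69. EDN1, the vasoconstrictor peptide endothelin, differed by -0.78, CCN1, a sister of CCN2, by -0.64, and IGFBP3, a binding protein for insulin-like growth factors, by -0.61 and by -0.69 at its second probe. The exceptions above 0 were led by VIM, the intermediate filament vimentin, at 7.95 with LY2157299, 7.41 without and 6.94 with the control hairpin, with a second probe at 0.62. SNAI2, a repressor of epithelial genes, was at 7.47 with LY2157299, 7.27 without and 5.29 with the control hairpin, so both FOXA1-hairpin arrays lay well above the control. CDH2 and ZEB1, other mesenchymal genes, were not detected, and CDH1, E-cadherin, differed by -0.11.

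The CCN2 promoter is shown because this target differed at both of its probes, and because its window holds the short SMAD-binding letters together with those of TEAD factors. Capitals mark CAGAC and GGAATG, searched on both strands in the 250 bases before and 50 bases after the RefSeq transcription start (GRCh38.p14), of which 1 copy of CAGAC and 3 copies of GGAATG were found.
CCN2 (chr6:131951323-131951622, minus strand): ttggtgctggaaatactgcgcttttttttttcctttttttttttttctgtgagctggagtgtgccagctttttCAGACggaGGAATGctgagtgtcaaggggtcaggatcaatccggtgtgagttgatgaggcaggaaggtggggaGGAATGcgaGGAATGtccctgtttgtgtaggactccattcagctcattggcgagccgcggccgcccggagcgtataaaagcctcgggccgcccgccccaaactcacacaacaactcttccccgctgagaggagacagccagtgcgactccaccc
Counted by gene, with a match in any of its windows, CAGAC lay in 18 of 30 target genes (60.0%) and in 50.4% of 8882 measured genes. Counted by single window, it lay in 45.3% of all 35116 RefSeq windows, which is not a like measure. GGAATG was in any window of 1283 of the measured genes, and in 4928 of all single windows. A match gives letters, not binding.

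**Figure D2:**
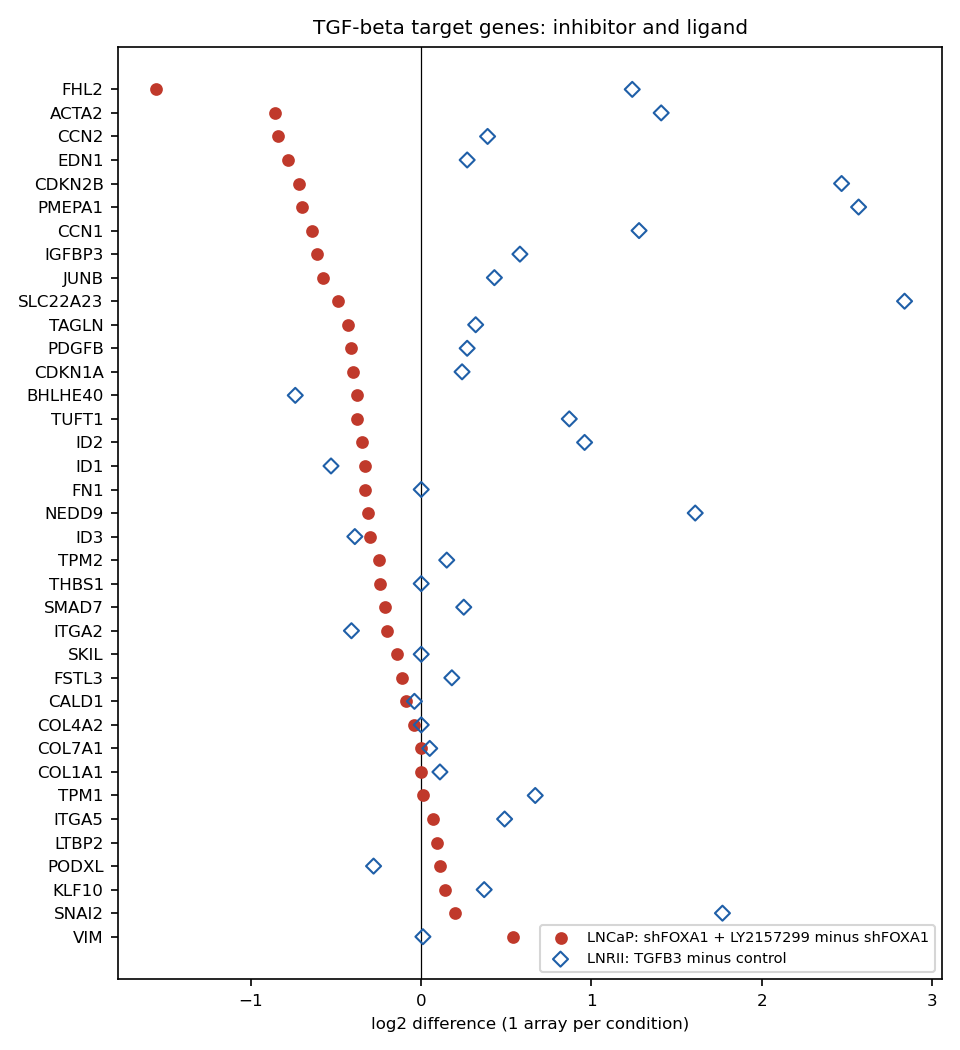
The 37 measured TGF-beta target genes, ordered by difference, with the log2 difference of FOXA1-hairpin LNCaP with LY2157299 minus without (filled red) and of LNRII with TGFB3 minus control (open blue) on the x axis. Of the red points 29 lie left of 0, and FHL2, TPM2, LTBP2, COL4A2 and COL1A1 are bounds. The LNRII values of CCN2, EDN1, CDKN2B, PDGFB, FN1, TPM2, THBS1, SNAI2, SKIL, KLF10, FSTL3, COL4A2 and COL1A1 are bounds too, and LTBP2 has none.

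The LNRII pair gave values from arrays that share no sample with this comparison, in cells described as carrying added TGFBR2, whose probes did not detect it, and given a ligand instead of an inhibitor. Of 10135 genes measured in both, TGFB3 was associated with 191 at least 2-fold higher (1.88%) and 109 at least 2-fold lower (1.08%). The median over these genes was 0.0. Of the 23 genes at least 2-fold lower with LY2157299, 21 were measured there, and their median difference with TGFB3 was 0.72, with 9 at least 2-fold higher and 0 at least 2-fold lower. Those 9 were AKR1C2, AZGP1, CRYAB, EMP1, FAXDC2, FHL2, NDRG1, OR51E2 and TCIM. The genes at least 1.5-fold lower that were also measured there had a median of 0.39. Of them, 29 were at least 2-fold higher with TGFB3 and 5 at least 2-fold lower. Those 5 were CDH26, COXFA4L2, FCGBP, PRUNE2 and TRIM49D1. The 67 measured of the 70 genes at least 1.5-fold higher had a median of -0.31. Of them, 6 were at least 2-fold higher with TGFB3 and 10 at least 2-fold lower. Those 6 were COL18A1, KITLG, RNF144A, TUBB2A, TUBB3 and TUBB4A. Among single genes, PMEPA1 differed by 2.57, TCIM by 2.77 and CCL20 by -1.62 with TGFB3. S100P differed by -0.14 in LNRII, and MYLK was detected there only with TGFB3, at 5.04, so its difference cannot be sized.

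Contractile genes were led by FHL2, MYLK and ACTA2. MYLK, myosin light chain kinase, had log2 intensities of 6.58 with LY2157299, 7.82 without and 5.15 with the control hairpin, so the inhibitor culture lay between the others. Its second probe was not detected with LY2157299, which gives a bound of -0.48. CNN2, a calponin, differed by -0.58. Of 30 measured actin and contractile genes, 21 lay below 0 and 9 above, with a median of -0.12 and 2 at least 2-fold lower. The shares over all genes were 48.2% below 0 and 0.209% at least 2-fold lower. FHL2, ACTA2, TAGLN, TPM1, TPM2 and CALD1 are in the TGF-beta target list too, so the lists share readings. ACTB, cytoplasmic actin, differed by -0.09.

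The CArG box, the site of serum response factor, lay in windows of MYLK and FHL2, both at least 2-fold lower, and of other contractile genes. Of these others, CNN2 differed by -0.58, ACTG2 by -0.39, TPM4 by -0.30 and SRF by -0.14. ACTN1 differed by -0.11, LPP by -0.09, ACTG1 by 0.04 and TES by 0.02. Whether the box bears on these differences was not tested. The MYLK window is shown for its box. It is the 1 window listed for the gene, and which MYLK transcript starts there is not given. It need not be the start of the transcript for the kinase, and whether the probes read that transcript is not given either. Capitals mark the CArG box, which begins 94 bases before the listed start.
MYLK (chr3:123620499-123620798, minus strand): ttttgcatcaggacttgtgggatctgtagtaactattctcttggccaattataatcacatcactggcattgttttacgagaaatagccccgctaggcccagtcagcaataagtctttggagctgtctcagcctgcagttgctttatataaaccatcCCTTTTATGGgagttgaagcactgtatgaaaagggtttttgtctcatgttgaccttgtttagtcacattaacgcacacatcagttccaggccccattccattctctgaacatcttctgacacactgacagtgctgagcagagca
Counted by gene, CArG boxes were in any window of 10 of 26 genes of the contractile list (38.5%), against 1.54% of measured genes. Counted by single window, they were in 1.29% of all windows.

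Genes of matrix and integrins showed no common direction, with 11 above and 13 below 0 of 25 and a median of -0.004. COL18A1, a basement membrane collagen, was the single member at least 1.5-fold higher, at 7.09 with LY2157299 and 6.43 without. MATN2, matrilin, was lowest in the list, at -0.53. Keratins had 7 of 9 below 0, against 48.2% of all genes, and a median of -0.24. KRT16P2, a keratin pseudogene, was at 5.51 with LY2157299, 7.07 without and 4.27 with the control hairpin, a value its near-identical paralogs may share. Its second probe was not detected with LY2157299 and was near the detection limit without it, so it does not size the difference. KRT19 differed by -0.64.

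Secreted and luminal proteins were among the lowest values. S100P, a calcium-binding protein, showed the largest difference of the 11017 genes. Its log2 intensity was 6.85 with LY2157299, 9.20 without it and 10.31 with the control hairpin, so that it was 5.07-fold lower with the inhibitor. The inhibitor culture was the lowest of the LNCaP arrays and the control hairpin the highest. AZGP1, a zinc-binding secreted glycoprotein of luminal cells, was at 6.61 with LY2157299, 8.15 without and 7.78 with the control hairpin. DEFB132, a beta-defensin, was at 7.60 with LY2157299, 9.01 without and 7.78 with the control hairpin, and its second probe, below detection with the inhibitor, gives a bound of -0.58. AGR3, a secretory-pathway disulfide isomerase, was at 5.82 with LY2157299, 7.16 without and 5.23 with the control hairpin, but its second probe, near the detection limit, differed by 0.18. The FOXA1 hairpin alone was the high array for AZGP1, DEFB132 and AGR3, an order that their choice by a large difference favours.

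Members of the same list lay on both sides of 0. LCN2, an iron-siderophore-binding lipocalin, stood at 0.81 and PI3, the antiprotease elafin, at 0.74, while SLPI, another antiprotease, stood at -0.63. LCN2 was highest with LY2157299, at 9.84, against 9.03 without it and 6.90 with the control hairpin. Of the 17 measured luminal and small secreted proteins, 3 were at least 2-fold lower, against 0.209% of all genes. In this list 11 were below 0 and 6 above, against 48.2% below 0 over all genes, and the list median was -0.21.

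Androgen-regulated genes leaned lower. Of 47 measured androgen-regulated genes, 34 lay below 0 and 13 above, with a median of -0.18 and 2 at least 2-fold lower. Over all genes 48.2% lay below 0 and 0.209% were at least 2-fold lower. NDRG1, a growth and stress responsive protein, had log2 intensities of 10.70 with LY2157299, 11.88 without and 10.28 with the control hairpin, so its high value was in the FOXA1-hairpin culture without inhibitor. ACP3, prostatic acid phosphatase, was at 8.59 with LY2157299, 9.61 without and 10.05 with the control hairpin, lowest in the inhibitor culture and highest in the control. NDRG1 is also in the glycolysis and hypoxia list, and PMEPA1 is in this list and in those of TGF-beta targets and of SMADs. KLK3, which encodes prostate-specific antigen, differed by -0.32 and KLK2 by -0.44. ALDH1A3, a retinal dehydrogenase, was lower at both probes, at -0.64 and -0.59.

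Steroid- and drug-conjugating enzymes had members on both sides of 0. UGT1A1, which glucuronidates bilirubin, was at 7.18 with LY2157299, 8.45 without and 5.96 with the control hairpin. UGT1A6 differed by -0.98 and by -0.68 at its second probe, and UGT1A3 by -0.84. The UGT1A isoforms share their last exons, so their probes may read each other. AKR1C2, a ketosteroid reductase of a family with near-identical paralogs, was at 7.30 with LY2157299, 8.45 without and 6.79 with the control hairpin. UGT2B17, which glucuronidates androgens, differed by 0.60 and by 0.87 at its second probe. Over the whole lists the medians were -0.05 for 25 UGT1A and phase I or II genes and -0.04 for 22 genes of androgen synthesis and inactivation.

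**Figure D3:**
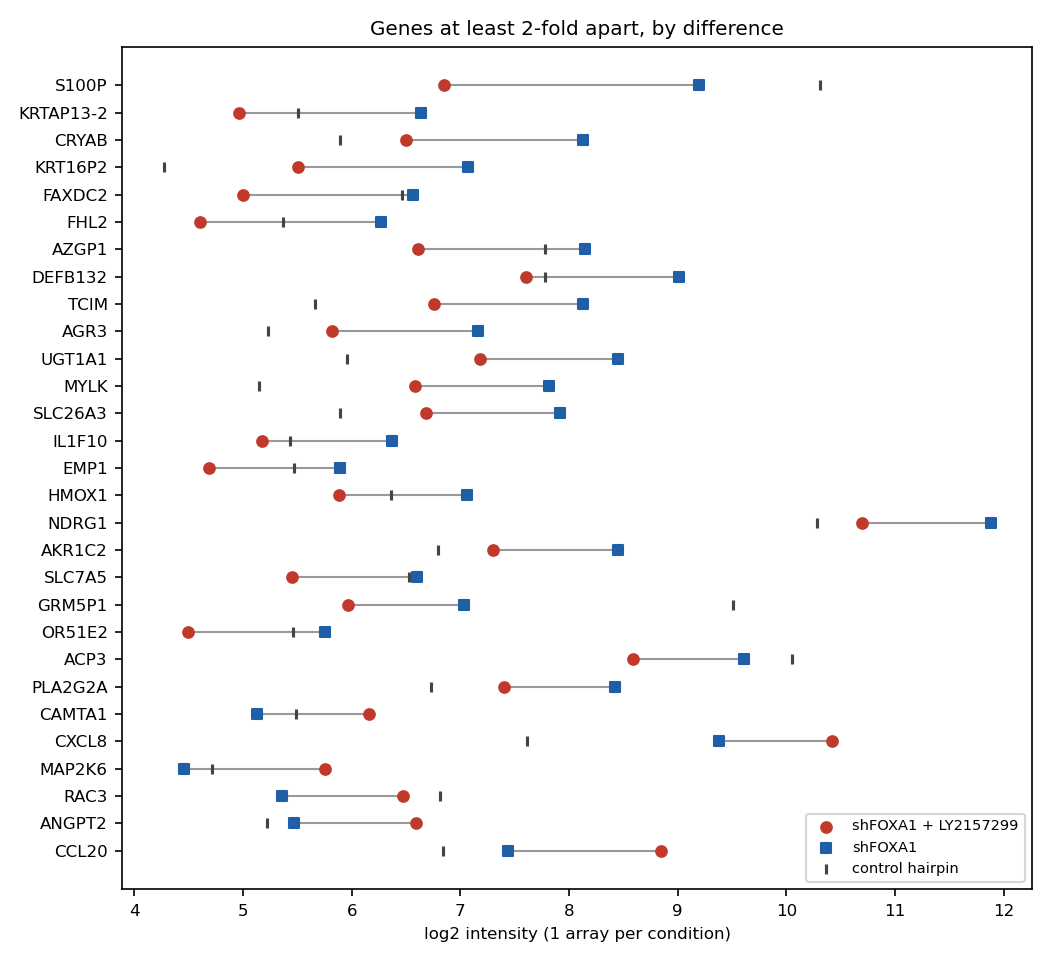
Log2 intensity of the 29 genes at least 2-fold apart, 1 gene per row and 1 array per condition, with the FOXA1-hairpin culture with LY2157299 (red circles), the FOXA1-hairpin culture alone (blue squares) and the control-hairpin culture (bars). A grey line joins the pair that is compared, and genes are ordered from S100P (-2.34) to CCL20 (1.41).

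Cell cycle genes showed a broad, small difference. Of 92 measured G2/M and mitosis genes, 90 were above 0 and 2 below, with a median of 0.39, against 50.7% above 0 over all genes. In this list 8 genes were at least 1.5-fold higher, against 0.635% of all genes, and 0 at least 2-fold. Of 69 measured genes of G1/S and DNA replication, 62 were above 0 and 7 below, with a median of 0.24 and 3 at least 1.5-fold higher. Member genes of a shared programme and of the same arrays are not independent readings, so these counts describe the list and do not replicate the culture. SGO1, which protects centromeric cohesion, was at 6.63 with LY2157299, 5.97 without and 6.70 with the control hairpin. KIF20B, a kinesin of cytokinesis, was at 8.08 with LY2157299, 7.45 without and 7.98 with the control hairpin. CDKN3, a phosphatase acting on CDKs, was at 9.30 with LY2157299, 8.68 without and 9.31 with the control hairpin.

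For all of SGO1, KIF20B and CDKN3 the low array was the FOXA1 hairpin alone, and the inhibitor and control-hairpin arrays lay within 0.1 of each other. These genes were named for being far from 0 in their list, which favours a low FOXA1-hairpin array. Over the mitosis list the median log2 level was 8.10 with LY2157299, 7.64 without and 7.96 with the control hairpin. For the replication list it was 8.22 with LY2157299, 7.92 without and 8.37 with the control hairpin, where it was highest. CDCA2, a mitotic targeting subunit of protein phosphatase, differed by 0.64. MKI67, the proliferation antigen, differed by 0.15. RRM2, a subunit of ribonucleotide reductase, led the replication list at 0.66, followed by E2F1 at 0.59 and TK1, thymidine kinase, at 0.59.

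The promoters of KIF20B and CDKN3 are shown because mitotic genes are known to carry the CHR element and CCAAT boxes, and these windows hold both. Capitals mark TTTGAA and CCAAT on either strand.
KIF20B (chr10:89701340-89701639, plus strand): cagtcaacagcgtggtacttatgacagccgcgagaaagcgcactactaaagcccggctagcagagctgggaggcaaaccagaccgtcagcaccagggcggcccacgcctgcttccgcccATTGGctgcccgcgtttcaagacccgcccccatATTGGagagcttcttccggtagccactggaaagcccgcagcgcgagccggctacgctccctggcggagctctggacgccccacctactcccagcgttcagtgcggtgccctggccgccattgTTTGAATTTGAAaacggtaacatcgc
CDKN3 (chr14:54396757-54397056, plus strand): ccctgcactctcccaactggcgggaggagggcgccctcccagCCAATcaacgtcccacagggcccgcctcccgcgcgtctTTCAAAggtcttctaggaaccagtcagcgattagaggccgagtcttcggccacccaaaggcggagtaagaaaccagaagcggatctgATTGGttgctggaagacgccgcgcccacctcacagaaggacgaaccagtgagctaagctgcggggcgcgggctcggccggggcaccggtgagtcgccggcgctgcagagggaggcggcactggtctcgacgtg
Counted by gene, TTTGAA lay in any window of 48 of 77 genes of the mitosis list (62.3%), against 13.5% of measured genes. CCAAT lay in 57 of these 77 genes (74.0%), against 44.2% of measured genes. Counted by single window, 15.2% of all windows held TTTGAA and 34.6% held CCAAT. KIF20B held 2 copies of each, the TTTGAA copies side by side. These shares describe a list of known mitotic genes, and whether either element bears on the differences was not tested.

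**Figure D4:**
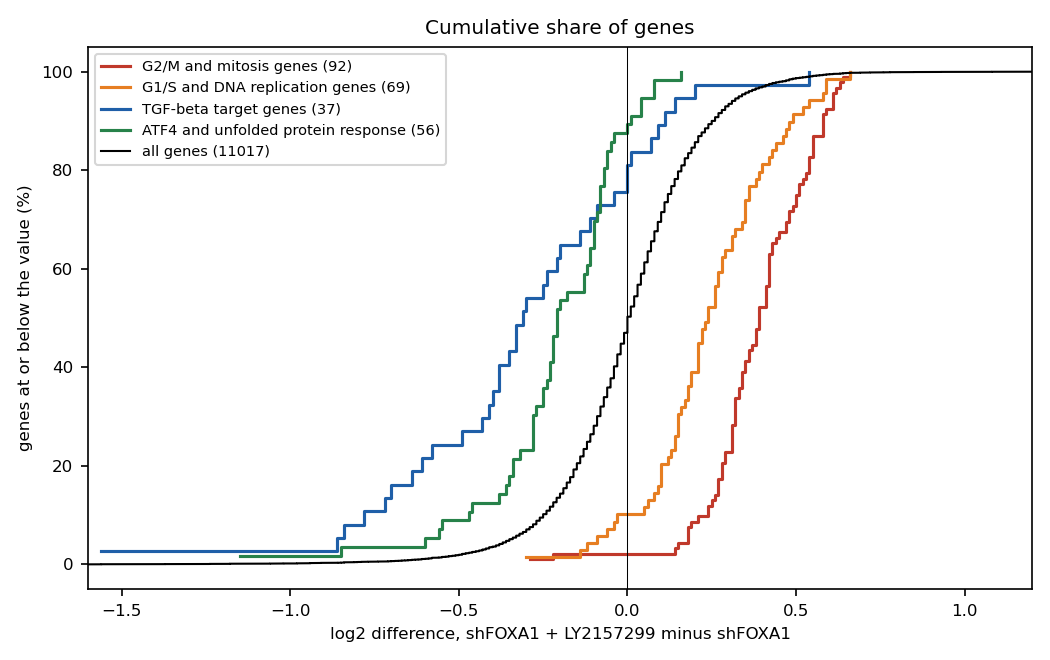
Cumulative share of genes (y axis, percent) at or below each log2 difference (x axis), for 4 gene lists and all 11017 genes. The mitosis and replication curves lie to the right of all genes, with medians of 0.39 and 0.24, and the TGF-beta target and ATF4 curves to the left, with medians of -0.31 and -0.21.

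CDK inhibitors and p53 targets were split, with 17 above and 20 below 0 of 37 and a median of -0.03. Only CDKN2B and CCNG2, a cyclin of quiescence, were at least 1.5-fold lower there. CDKN1A, p21, was at 12.03 with LY2157299, 12.43 without and 12.17 with the control hairpin. CDKN1B, p27, differed by -0.04 and MYC by 0.12. Of 38 measured histone genes 29 lay below 0, against 48.2% of all genes. The histone median was -0.10, and H2BC6 was lowest at -0.79.

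Amino acid and stress genes were lower. Of 56 measured ATF4 and unfolded protein response genes, 50 lay below 0 and 6 above, with a median of -0.21. Over all genes 48.2% lay below 0. In this list 3 were at least 1.5-fold lower and 1 at least 2-fold lower, against 1.23% and 0.209% of all genes. SLC7A5, the large neutral amino acid transporter, was at 5.45 with LY2157299, 6.60 without and 6.53 with the control hairpin. NUPR1, a stress-induced chromatin protein, was at 9.13 with LY2157299, 9.98 without and 10.00 with the control hairpin, and its second probe differed by -0.96. SLC1A5, the glutamine transporter ASCT2, was at 6.73 with LY2157299, 7.33 without and 7.86 with the control hairpin. In all of SLC7A5, NUPR1 and SLC1A5 the inhibitor culture was the lowest of the 3 LNCaP arrays.

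The SLC1A5 promoter is shown because it holds TGATGNAA, the amino acid response element core to which ATF4 dimers bind. Capitals mark the match. RefSeq lists 3 start windows for the gene, and the window with the most matches is shown.
SLC1A5 (chr19:46784765-46785064, minus strand): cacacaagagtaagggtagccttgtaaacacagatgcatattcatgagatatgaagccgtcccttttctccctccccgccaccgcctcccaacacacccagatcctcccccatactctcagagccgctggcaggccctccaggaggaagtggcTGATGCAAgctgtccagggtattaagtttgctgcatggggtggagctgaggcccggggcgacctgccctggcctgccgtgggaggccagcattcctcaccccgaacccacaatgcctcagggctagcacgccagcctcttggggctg
Counted by gene, the element lay in any window of 10 of 49 genes of the list (20.4%) and of 2.66% of measured genes. Counted by single window, it lay in 3.62% of all windows. The other genes of the list with it were ATF3, CHAC1, ASNS, SLC3A2, CEBPG, AARS1, GARS1, MARS1 and JDP2. Their differences ran from -0.35 at MARS1 to 0.04 at CEBPG and JDP2. SLC7A5 and NUPR1 were not among the genes with a match. Whether the element bears on the differences was not tested.

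Glycolysis and hypoxia genes had 37 of 53 below 0, against 48.2% of all genes, and a median of -0.19. PLOD2, a collagen lysyl hydroxylase, differed by -0.71 and ADM, adrenomedullin, by -0.69, while ENO2, the neuronal enolase, differed by 0.75. CRYAB, a small heat shock protein, was at 6.50 with LY2157299, 8.13 without and 5.89 with the control hairpin, but the 24 measured chaperones had a median of -0.06. HMOX1, heme oxygenase, was at 5.88 with LY2157299, 7.06 without and 6.36 with the control hairpin, and the median of its list of 24 was 0.01. Structural genes of the ribosome and respiratory chain lay near 0, with medians of 0.00 over 67 and 0.04 over 70, and 0 genes 1.5-fold apart. GAPDH differed by 0.01 and HPRT1 by -0.06.

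Chemokines made up 2 of the 6 genes at least 2-fold higher. CCL20, a ligand of CCR6 and the highest of the 6, was at 8.85 with LY2157299, 7.44 without and 6.84 with the control hairpin. CXCL8, the neutrophil chemokine interleukin 8, was at 10.42 with LY2157299, 9.38 without and 7.61 with the control hairpin, and its second probe differed by 0.92. In both, the inhibitor culture was the highest of the LNCaP arrays and the control hairpin the lowest. CCL2 differed by 0.63 and IL32 by 0.53, whereas CXCL10, an interferon-induced chemokine, differed by -0.61. Over 29 measured inflammatory genes, 18 were above 0 and 11 below, with a median of 0.09, against 50.7% above 0 over all genes. The 35 interferon and antigen presentation genes had a median of -0.12, with GBP1, a guanylate-binding protein, lower at -0.82 and at -0.84 by its second probe.

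Other genes at least 2-fold higher were few. ANGPT2, a ligand of the TIE2 receptor, was at 6.59 with LY2157299, 5.47 without and 5.22 with the control hairpin, and its second probe differed by 1.33. RAC3, a small GTPase, was at 6.47 with LY2157299, 5.36 without and 6.81 with the control hairpin. CAMTA1, a calmodulin-binding transcription factor, was at 6.16 with LY2157299, 5.13 without and 5.49 with the control hairpin. RAC3 and CAMTA1 were lowest with the FOXA1 hairpin alone, and ANGPT2 with the control hairpin. MAP2K6, a p38 kinase kinase, was at 5.75 with LY2157299 and below detection without, a difference of at least 1.08. Of the higher genes, ANGPT2 and CXCL8 had a second probe detected on both arrays, and both second probes were also at least 1.5-fold higher.

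The remaining genes at least 2-fold lower belong to no common group. TCIM, a regulator of beta-catenin signalling, was at 6.76 with LY2157299, 8.13 without and 5.66 with the control hairpin. SLC26A3, a chloride and bicarbonate exchanger, was at 6.68 with LY2157299, 7.92 without and 5.89 with the control hairpin. PLA2G2A, a secreted phospholipase, was at 7.40 with LY2157299, 8.42 without and 6.73 with the control hairpin. In all of TCIM, SLC26A3 and PLA2G2A the FOXA1 hairpin alone was highest and the inhibitor culture in between. These genes were picked for a large difference that uses the FOXA1-hairpin array, so its place as highest is partly set by that choice. FAXDC2, a hydroxylase-like protein, was at 5.00 with LY2157299, 6.56 without and 6.46 with the control hairpin, so the inhibitor array stood apart from both others. KRTAP13-2, a keratin-associated protein, was at 4.96 with LY2157299, 6.64 without and 5.51 with the control hairpin. IL1F10, an interleukin 1 family cytokine, was at 5.17 with LY2157299, 6.37 without and 5.43 with the control hairpin.

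EMP1, an epithelial membrane protein, and OR51E2, the prostate-specific G-protein coupled receptor, were not detected with LY2157299. Their levels were 5.89 and 5.75 without it and 5.47 and 5.46 with the control hairpin, which gives bounds of -1.18 and -1.04. GRM5P1, a pseudogene, was at 5.97 with LY2157299, 7.03 without and 9.51 with the control hairpin, where it was highest. Just short of 2-fold, RGS4, an inhibitor of G-protein signalling, differed by -0.98 and ANKRD1, a muscle ankyrin repeat protein, by -0.96, while on the higher side SEMG1, semenogelin, stood at 0.93.

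Of the other lists, the 10 measured BMP and ID genes had 7 below 0 and a median of -0.23, with HEY1, a Notch and BMP target, at -0.38 and ID2, an inhibitor of differentiation, at -0.35. The remaining medians lay nearer to 0 than that. The 34 solute carriers had a median of -0.13, the 11 S100 proteins -0.07, the 25 forkhead, homeobox and prostate factors -0.09, the 26 epithelial junction genes -0.03 and the 20 matrix proteases and inhibitors -0.04. The 30 AP-1 and immediate early genes had a median of 0.06, with DUSP5, an ERK phosphatase, at -0.74, and the 39 cholesterol and fatty acid genes 0.05. The 14 YAP and CCN genes had a median of -0.04, the 26 IGF, Notch and Wnt genes 0.01 and the 16 RGS and sphingosine phosphate genes -0.01, and these 3 medians changed sign under other processing settings. The 12 neuroendocrine and neuronal markers had a median of -0.01 and the 12 control genes -0.03. The 7 mesenchymal markers had a median of -0.13, which turned to 0.039 where detection was required on both arrays.

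Of the lower genes at 2-fold, only AGR3 had such a second probe. At 1.5-fold, 14 of 15 higher genes and 23 of 25 lower genes with a second probe kept the sign, and 4 and 13 of them were also at least 1.5-fold apart at that probe.

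**Figure D5:**
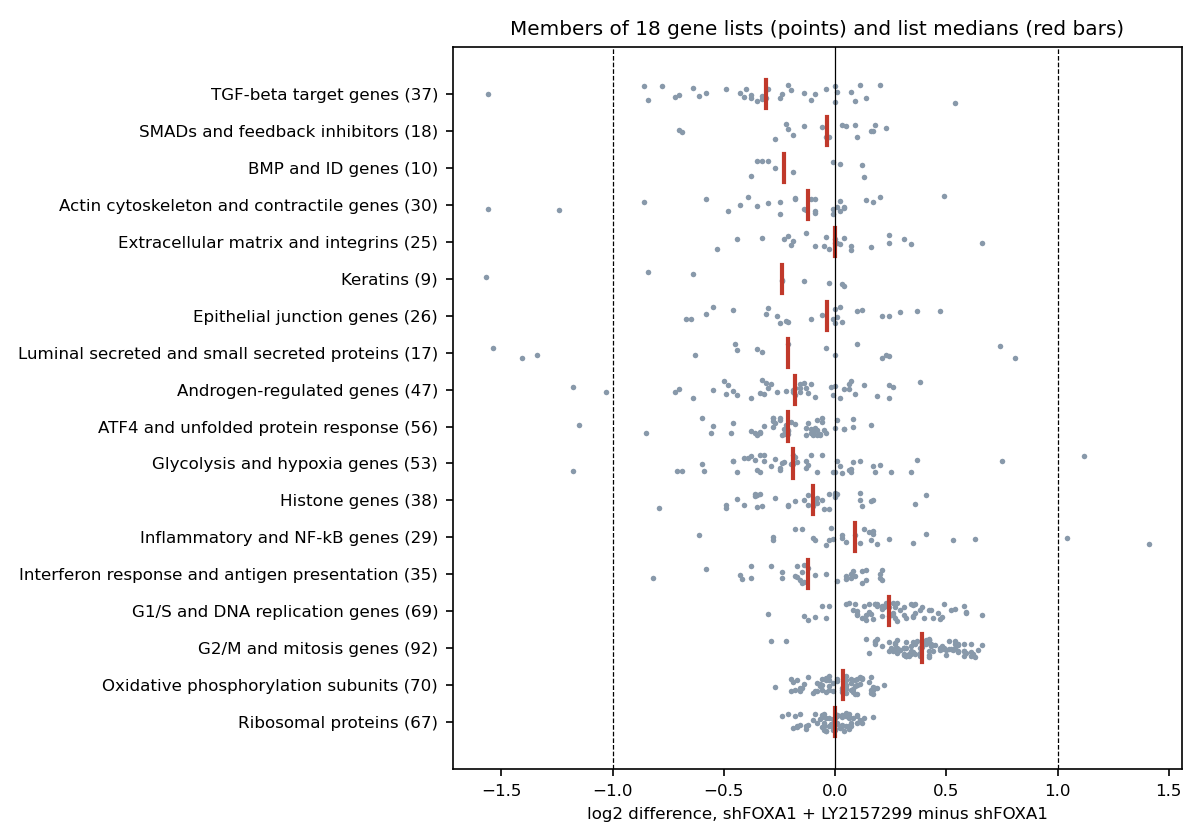
Log2 differences, FOXA1 hairpin with LY2157299 minus FOXA1 hairpin alone (x axis), of the measured members of 18 gene lists, 1 point per gene, with the list median as a red bar and the number of genes in brackets. Vertical jitter carries no meaning, and dashed lines mark 2-fold. The mitosis list sits right of 0 at 0.39 and the TGF-beta targets left at -0.31.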

How the data were processed

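Total RNA from 5 human cell cultures was read on 1 Illumina bead array each. The deposited table gives, per the file headers, mean bead intensity without normalization, and each probe's detection p-value against the array's negative controls. The submitters' processing notes name GenomeStudio, with no version. The sources used here do not say how the authors made a further, processed intensity table, which served as an alternative only. Columns of other samples numbered 0.

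Background was corrected and arrays were quantile normalized with neqc in limma 3.58.1 (R 4.3.3), with an offset of 16, over all 5 arrays, tested on simulated data. Probes were named from the platform table (30107 with 1 symbol, 8 with several, 17191 unnamed, 30068 matched by Entrez identifier). Each gene was represented by its brightest probe entering. A side not detected was raised to the lowest detected log2 value of its array (4.71 with LY2157299, 4.67 without), and the difference is then a bound. With 1 array per group there is no test, and precision is limited by the number of arrays. Tables used Python 3.11.15, pandas 2.3.3 and numpy 2.4.6, and figures matplotlib 3.10.9.

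The comparison, the 42 gene lists and the named genes were chosen with earlier results of these data known. The lists overlap, and a gene in several lists is counted in each. Named genes are the 20 with the largest increase and decrease, every gene at least 2-fold apart, the up to 5 members furthest from 0 in each list, and set pathway and control genes. Any other gene named, such as SLPI, was picked after its value was seen. The 11 alternatives cover background, offset, normalization, detection limit, probe choice and fold.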

Additional observations from a re-analysis of the deposited data

How the results depend on the processing

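The counts of genes at least 2-fold apart changed with the background setting, the table used and the threshold. Without background correction 1 gene was higher and 5 lower, with an offset of 50 there were 2 and 12, in the values processed by the authors 11 and 49, and at a 1.5-fold threshold 70 and 136. Under the other alternatives the counts stayed between 5 and 7 higher and 20 and 27 lower. All 6 higher and 23 lower genes kept their sign under each normalisation and background setting. Of 15 list medians at least 0.1 from 0, 13 kept their sign under every alternative. The median of the mesenchymal list, -0.13 over 7 genes, reversed to 0.039 with detection required on both arrays, where fewer genes were measured. The interferon list, -0.12, reached 0.00 at its highest. Without background correction the medians of the TGF-beta targets and keratins were -0.14 and -0.08, and that of the secreted proteins was -0.04 at a detection p below 0.05. Of 1830 values of named genes, 245 moved by more than the disagreement between probes and 0 reversed. Genes not detected on 1 side are bounds. No paired analysis was possible because each condition had 1 array. The cause of these shifts was not tested.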

Other observations

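The families below were chosen after their values were seen. Tubulins, the subunits of microtubules, were higher with LY2157299: all 6 measured beta-tubulins lay above 0, with a median of 0.64 and 4 at least 1.5-fold higher, and all 8 measured alpha-tubulins, with a median of 0.21. TUBB4B was at 10.92 with LY2157299, 10.27 without it and 10.41 with the control hairpin. TUBB3, a beta-tubulin of neurons, was at 8.95 with LY2157299, 8.29 without and 7.48 with the control hairpin. TUBB2A, TUBB3 and TUBB4A were also at least 2-fold higher with TGFB3 in LNRII, TUBB3 by 2.44 and TUBB4A by 1.23. Tubulin genes are near-identical in their coding parts, so probes may share signal.

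The 6 measured metallothioneins, zinc- and copper-binding proteins, lay above 0, with a median of 0.30 and MT2A highest at 0.77. They are also near-identical. The 6 measured members of the set of TRIM48, TRIM49C, TRIM49D1, TRIM49D2, TRIM51 and the pseudogene GRM5P1 lay between -1.06 and -0.68. TRIM51 was at 7.76 with LY2157299, 8.70 without and 11.09 with the control hairpin, so the FOXA1-hairpin arrays were both below the control. These copies are similar, and their probes are not independent readings.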
